A study of Homo sapiens with 20 samples.

Results

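The effect of TAZ siRNA was compared between 2 backgrounds of MII cells, one in which APC and one in which beta-catenin had been depleted by siRNA. MII (MCF10-T1k) is a RAS-transformed line of human mammary epithelial cells. The comparison used 16 of the 20 arrays of the series, 4 each from cells given siRNA against APC (siAPC), against APC and TAZ (siAPC/siTAZ), against beta-catenin (sibcat) and against beta-catenin and TAZ (sibcat/siTAZ). The 4 remaining arrays, from cells given control siRNA against GFP (siGFP), served as a reference level and in the estimate of the spread. All cells were lipofected with siRNA and kept in their usual medium with insulin, EGF, hydrocortisone and cholera toxin, and no group received TAZ siRNA alone.

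APC helps to hold together the destruction complex, which tags beta-catenin for degradation, so that its loss lets beta-catenin accumulate and act with TCF and LEF factors on Wnt target genes. TAZ, the product of WWTR1, is a transcriptional coactivator of the Hippo pathway that works through TEAD factors on genes such as CCN2, CCN1 and ANKRD1, and TAZ can itself be held in the beta-catenin destruction complex. By its title the series concerns the role of TAZ downstream of Wnt, and the comparison asks which genes responded to TAZ siRNA to a different degree when beta-catenin signalling was raised by siAPC or lowered by sibcat.

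Each value is an Affymetrix HG-U133 Plus 2.0 signal on the log2 scale, with 1 probe set for each of 19775 genes. The TAZ siRNA effect is the mean of the 4 combined arrays minus the mean of the 4 single-depletion arrays of a background. The difference reported throughout is the effect with siAPC minus the effect with sibcat. A negative difference means that TAZ siRNA left a gene lower, relative to the single depletion, with siAPC than with sibcat, and a positive difference means the reverse. Differences were tested with limma, two-sided and with Benjamini-Hochberg adjustment over all genes, and those at an adjusted p under 0.05 are called. The standard error (SE) of a difference had a median of 0.104. Replicates are named biological in the labels, which do not mention separate cultures, so the p-values reflect only how these samples spread, which may be technical. Array medians lay between 5.07 and 5.11, and the lowest correlation between arrays of a group was 0.996. The epithelial markers KRT5, KRT14, CDH1, EPCAM, KRT8 and KRT18 had group means between 8.49 and 13.08, while KRT17 and TP63 were not analysed here. PTPRC, the defining marker of leukocytes, stayed at 2.73 or less and the endothelial CDH5 at 3.18 or less, while CD14 had group means of 5.13 to 8.16 and PECAM1 of 5.24 to 6.73.

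The TAZ siRNA effect differed between the backgrounds for 5480 genes, which is 27.7% of those tested. Of these, 2407 (12.2% of all genes) had a positive and 3073 (15.5%) a negative difference. All genes include many of low signal. When only the 8146 with a mean signal of at least 7 were tested, 2100 were positive and 2822 negative. Shares over all genes are therefore a low reference for lists of well-expressed genes. Most differences were modest: the median size among called genes was 0.39, and 334 genes (1.69%) reached a size of 1 or more, 173 of them positive. For 3763 called genes (19% of those tested) the 16 pairwise single-array changes of one background did not overlap the 16 of the other. The median difference over all genes was -0.02. The effect itself was called for 8607 genes (43.5%) with siAPC and 6264 (31.7%) with sibcat, a description only, since both effects share their arrays with the difference.

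**Figure D1:**
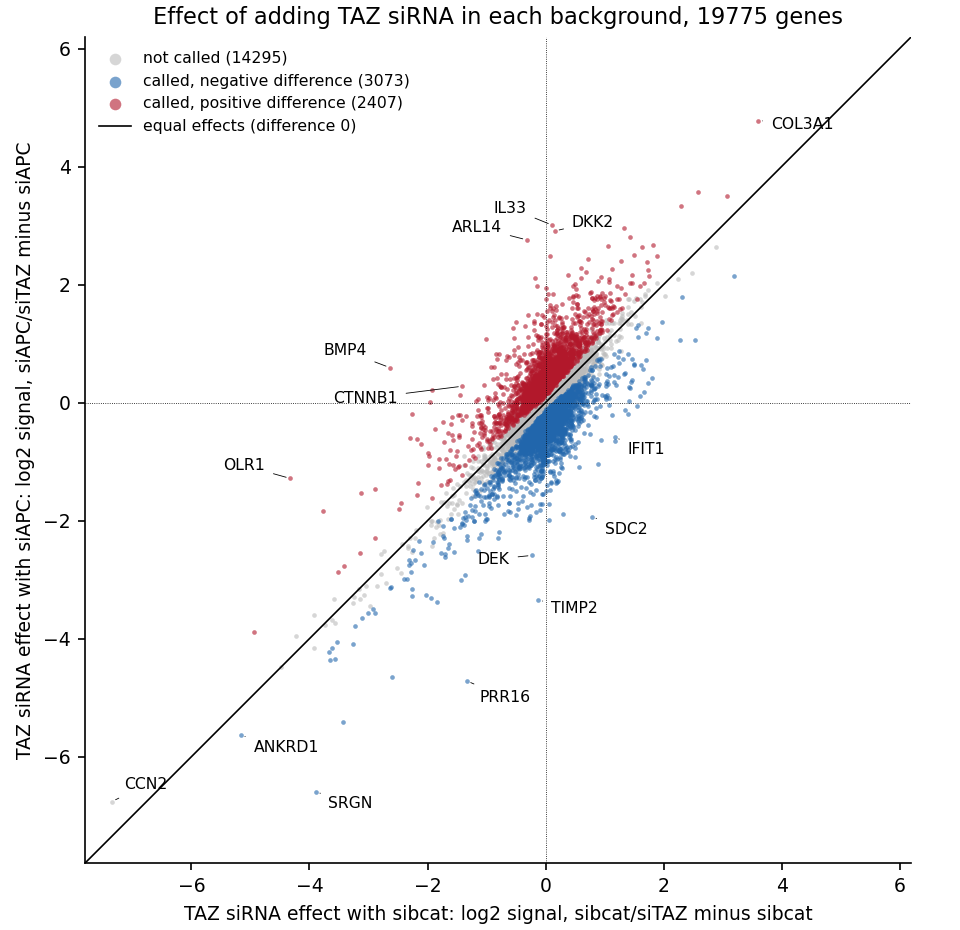
Effect of TAZ siRNA in each background for 19775 genes (x axis, sibcat/siTAZ minus sibcat; y axis, siAPC/siTAZ minus siAPC; log2 signal, means of 4 arrays). Points on the diagonal have equal effects; the 3073 genes with a called negative difference lie below it (TIMP2, PRR16, SDC2) and the 2407 with a called positive difference above it (BMP4, ARL14, DKK2).

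The called genes reached their difference in several ways. The largest class held 1309 genes that fell with siAPC and had no called effect with sibcat, and 880 rose with siAPC with no called effect with sibcat. In 650 genes TAZ siRNA lowered the signal in both backgrounds and more so with siAPC, and in 765 it raised the signal in both and more so with siAPC. The larger effect lay with sibcat for 210 genes that fell in both and 158 that rose in both. Called effects of opposite sign were found in 697 genes, 453 of which fell with siAPC and rose with sibcat and 244 of which did the reverse. Seen from the other side, the gap between the siAPC and sibcat backgrounds was called in both states and wider with TAZ siRNA for 2473 of the called genes (45.13%). It was called only with TAZ siRNA for 1817 (33.16%) and only without it for 490 (8.942%). It was called in both states but narrowed for 246 (4.489%) and changed sign for 343 (6.259%), and neither gap was called for 111 (2.026%).

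**Figure D2:**
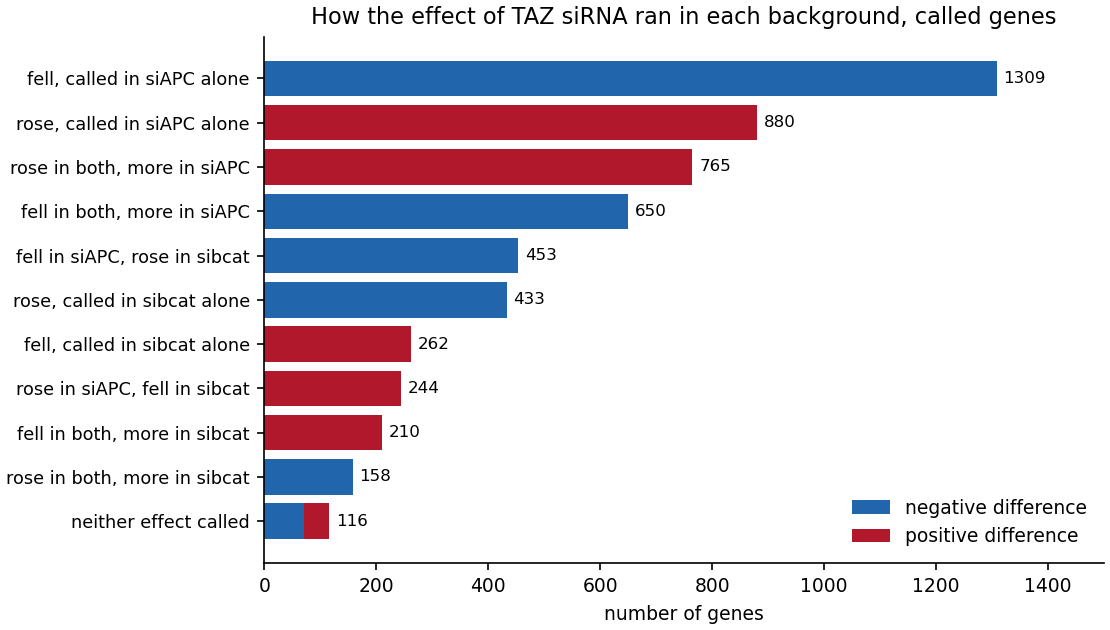
Number of called genes in each class of TAZ siRNA effects (bars, genes; blue, negative and red, positive difference). The classes with a called effect in siAPC alone, 1309 falls and 880 rises, are the longest bars, and 697 genes had called effects of opposite sign.

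The 3 genes targeted by the siRNAs did not behave alike in the 2 backgrounds. WWTR1 signals were 10.61, 10.60, 10.67 and 10.69 on the siAPC arrays and 7.91, 7.98, 8.02 and 8.0 with siAPC/siTAZ, against 10.66, 10.69, 10.56 and 10.58 with sibcat and 8.33, 8.42, 8.40 and 8.49 with sibcat/siTAZ. TAZ mRNA therefore ended lower with siAPC on every array, by a difference of -0.45 (SE 0.0764, adjusted p = 1.2e-04, limma). The other probe sets of WWTR1 gave -0.11 (adjusted p = 0.651) and -0.34 (adjusted p = 0.211), so the unequal depth of the TAZ knockdown was called on 1 of its 3 probe sets. CTNNB1, the gene of beta-catenin, read 11.99, 11.93, 12.03 and 11.98 with siAPC and 12.31, 12.33, 12.14 and 12.26 with siAPC/siTAZ. With sibcat it read 10.66, 10.66, 10.56 and 10.53, and with sibcat/siTAZ 9.12, 9.27, 9.19 and 9.20. On this probe set CTNNB1 was lower on all 4 arrays that received TAZ siRNA beside sibcat, and the difference was 1.69 (SE 0.0691, adjusted p = 1.4e-12). A further probe set went from 7.08 to 6.60 with sibcat and gave 1.23, also called. The third showed no knockdown (means 7.0 with siGFP, 7.16 with sibcat and 7.36 with sibcat/siTAZ), and its called difference of 0.50 came with a rise from 7.32 to 8.03 with siAPC. APC moved the other way: it fell by a further 0.46 with siAPC, rose by 0.22 with sibcat, and had a difference of -0.67 (SE 0.075, adjusted p = 8.8e-07). Of its 4 other probe sets 1 was called, at -0.53, while the others gave -0.30, 0.045 and 0.16. Whether single depletions received control siRNA to equal the total dose is not stated in the labels, and the part of knockdown depth in the differences that follow was not tested.

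The 15 largest negative differences whose pairwise changes did not overlap all belonged to genes that TAZ siRNA lowered with siAPC. With sibcat some of them fell less, some had no called effect and some rose. TIMP2, an inhibitor of matrix metalloproteinases, read 11.14, 11.15, 11.12 and 11.23 with siAPC and 7.76, 7.83, 7.78 and 7.88 with siAPC/siTAZ. With sibcat it read 11.37, 11.33, 11.39 and 11.46, and with sibcat/siTAZ 11.30, 11.27, 11.20 and 11.30. The 4 siAPC/siTAZ arrays stood more than 3 log2 units below the other 12 arrays of the comparison, and the difference was -3.23 (SE 0.0564, adjusted p = 7.0e-18), with -3.00 and -0.88 on its other probe sets. SDC2, the cell surface proteoglycan syndecan 2, went from 7.74, 7.82, 7.84 and 7.70 to 5.77, 5.91, 5.80 and 5.87 with siAPC, and from 8.05, 8.12, 7.96 and 8.0 to 8.86, 8.84, 8.83 and 8.76 with sibcat. It fell in one background and rose in the other, without overlap of the groups, and had a difference of -2.73 (SE 0.0646, adjusted p = 9.1e-16). PRR16, a regulator of cell size, fell from 8.94, 9.06, 9.15 and 9.05 to 4.44, 4.36, 4.24 and 4.29 with siAPC, and from 8.93, 9.01, 8.79 and 9.04 to 7.56, 7.70, 7.48 and 7.70 with sibcat. Both single depletions had brought it above the control mean of 6.04, and only the siAPC/siTAZ arrays lay below that mean. Its difference of -3.39 (SE 0.109, adjusted p = 9.6e-14) was the largest in size among all genes tested.

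SRGN, the proteoglycan serglycin, had a similar course to PRR16, with effects of -6.60 and -3.89 and a difference of -2.71 (adjusted p = 3.2e-12). OXTR, the oxytocin receptor, and the aldehyde oxidase AOX1 also fell in both backgrounds and further with siAPC, by differences of -1.98 and -2.05. DEK, a chromatin protein tied to proliferation, read 11.53 to 11.67 with siAPC and 8.93 to 9.03 with siAPC/siTAZ, but 11.59 to 11.74 with sibcat/siTAZ. Its difference was -2.36 (SE 0.0709, adjusted p = 4.5e-14). The phosphatase DUSP5, which acts on ERK, and the co-chaperone SGTB had effects of -1.71 and -1.99 with siAPC and had no called effect with sibcat. FGF13 and PID1 fell with siAPC and rose with sibcat, with differences of -1.92 and -1.83, as did the protease ADAMTS5 at -1.57. OIP5 (-2.19), NUF2 (-1.73) and E2F8 (-1.72), which act in centromere assembly, kinetochore attachment and E2F-driven transcription, completed the largest negative differences together with the interferon-induced IFIT1 (-1.77).

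The largest positive differences fell into genes that rose with siAPC and genes that fell mainly with sibcat. BMP4, a secreted ligand of the BMP pathway and a reported beta-catenin target, read 10.29, 10.30, 10.30 and 10.25 with siAPC and 11.02, 10.84, 10.82 and 10.83 with siAPC/siTAZ. With sibcat it read 8.09, 7.91, 8.11 and 8.03, and with sibcat/siTAZ 5.52, 5.44, 5.29 and 5.34, close to the control mean of 5.65. TAZ siRNA thus raised it in one background and returned it to control level in the other, a difference of 3.23 (SE 0.105, adjusted p = 9.6e-14). DKK2, a secreted modulator of Wnt receptors, read 6.10, 6.33, 6.14 and 5.96 with siAPC and 8.90, 9.11, 9.01 and 9.15 with siAPC/siTAZ, while the sibcat arrays held 2.54, 2.58, 2.48 and 2.47 and the sibcat/siTAZ arrays 2.63, 2.66, 2.78 and 2.65. Its signal stayed at the bottom of the range on all sibcat arrays, where a fall could not be seen, and the difference was 2.75 (SE 0.0948, adjusted p = 2.1e-13), which its other probe set did not share (-0.04). ARL14, a small GTPase of the ARF family, rose from 4.10, 3.88, 4.28 and 4.15 to 6.88, 6.79, 6.85 and 6.92 with siAPC, and fell from 6.75, 6.93, 6.47 and 6.65 to 6.29, 6.34, 6.43 and 6.47 with sibcat. The siAPC arrays had been far below the control mean of 7.80, and TAZ siRNA brought them above all sibcat/siTAZ arrays, while the sibcat groups met at 6.47 (difference 3.08, SE 0.123, adjusted p = 1.0e-12).

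The alarmin cytokine IL33 rose with siAPC from a mean of 2.45 to 5.46 and had no called effect with sibcat (difference 2.90, adjusted p = 2.8e-10). CCN4, a matricellular protein known as a Wnt target, MYO3B, TCIM and the angiogenesis factor VASH2 followed the same course, with differences of 2.28, 2.12, 2.41 and 1.93. With sibcat, IL33, MYO3B and TCIM lay at the bottom of the range (means 2.99, 2.76 and 2.13), where a fall could not be seen. The sibcat mean of CCN4, 3.4, was little above it, which limits the fall that can be seen. STMN1, the microtubule-destabilising stathmin, read 8.99 to 9.07 with siAPC/siTAZ and 5.96 to 6.4 with sibcat/siTAZ, and its effect was -0.19 with siAPC and -2.27 with sibcat. Its difference of 2.08 (adjusted p = 1.0e-11) was not shared by its other probe set (-0.14). ZBED2 and TOX, both nuclear proteins, likewise fell mainly with sibcat, with differences of 2.14 and 1.97. OLR1, a receptor for oxidised LDL, and RGCC, a regulator of the cell cycle, fell in both backgrounds and further with sibcat (differences 3.04 and 1.93). On the linear signal scale the sign of these differences turned, and both genes had begun at a higher signal with siAPC. The ubiquitin ligase FBXO32 rose with siAPC and fell with sibcat, with a difference of 1.86 (SE 0.0583, adjusted p = 7.4e-14). Opposite courses of the same kind were seen for the T cell costimulator TNFSF18 (2.08), PLCXD2 (1.65), the sarcoglycan SGCB (1.6), the prostaglandin receptor PTGER4 (1.57) and PGM2L1 (1.38).

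**Figure D3:**
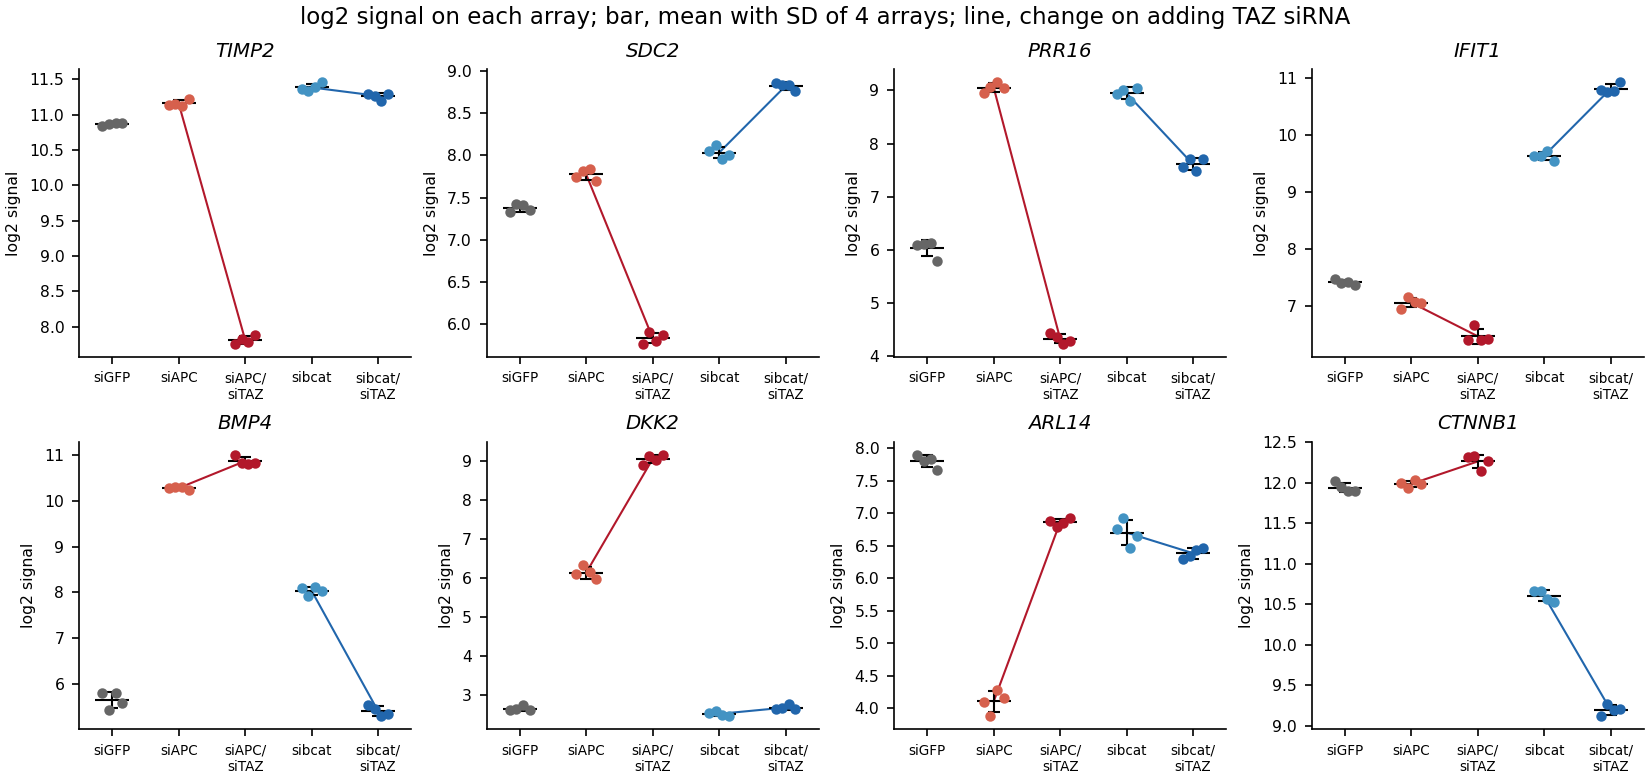
log2 signal on each array for 8 genes (points, arrays A to D; bars, mean and SD of 4; coloured lines join a single depletion to the same depletion with TAZ siRNA). TIMP2 fell by 3.35 with siAPC and by 0.12 with sibcat, SDC2 and IFIT1 fell with siAPC and rose with sibcat, BMP4 did the reverse, DKK2 rose from siAPC to siAPC/siTAZ and stayed near 2.6 on the sibcat arrays, and CTNNB1 lay near 9.2 on the sibcat/siTAZ arrays.

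The reporter genes of TAZ and TEAD activity fell strongly in both backgrounds, and the difference was called for CCN1 and ANKRD1. CCN2 fell from 11.05, 10.99, 11.08 and 11.01 to 3.77, 4.23, 4.38 and 4.70 with siAPC, and from 10.62, 10.52, 10.51 and 10.60 to 2.72, 3.04, 3.45 and 3.64 with sibcat. The pairwise changes of the backgrounds overlapped and the difference of 0.59 (SE 0.239, adjusted p = 0.079) was not called, although it was without siAPC/siTAZ array A (0.75, adjusted p = 0.0117) or sibcat/siTAZ array D (0.73, adjusted p = 0.0208). Its sibcat/siTAZ signals lie near the bottom of the range, which limits the fall that can be seen. CCN1 fell from 12.10, 11.93, 12.15 and 12.11 to 8.10, 8.21, 8.15 and 8.25 with siAPC and from 11.65, 11.78, 11.62 and 11.55 to 6.90, 6.64, 6.66 and 6.65 with sibcat. Its fall was larger with sibcat on the log2 scale (difference 1.04, SE 0.0881, adjusted p = 2.2e-08), while on the linear signal scale it was larger with siAPC. ANKRD1 ended near 3, close to its control mean of 3.08 and at the bottom of the range, in both backgrounds. It started at 8.68 to 8.80 with siAPC and at 8.06 to 8.34 with sibcat, and its difference was -0.48 (SE 0.142, adjusted p = 0.0154). Both end levels lay at the bottom of the range, which limits the fall that can be seen, and the starting mean was higher with siAPC by 0.55.

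Of 27 measured YAP/TAZ-TEAD targets, 24 fell with siAPC and 23 with sibcat. The difference was called for 9 in the positive and 8 in the negative direction (33.3% and 29.6%, against 12.2% and 15.5% of all genes). Only 3 of the 27 had a group mean under 5, against 7693 of all 19775 genes, so the all-gene shares are a low reference here. The median difference of the list was 0.08. RBMS3, which binds RNA, and FSTL1, a secreted glycoprotein, fell with siAPC and had no called effect with sibcat (differences -1.20 and -1.08). TGFB2, the ligand TGF-beta 2, fell from 9.26, 9.32, 9.20 and 9.35 to 7.76, 7.85, 7.88 and 7.81 with siAPC and from 8.84, 8.83, 8.70 and 8.78 to 5.77, 5.97, 5.84 and 6.03 with sibcat. It ended above the control mean of 7.6 in one background and below it in the other, with a difference of 1.43 (SE 0.0777, adjusted p = 5.9e-11) whose sign turned on the linear scale. THBS1, AMOTL2 and CRIM1 had smaller positive differences (0.58, 0.65 and 0.65), those of AMOTL2 and CRIM1 turning sign on the linear scale, and the receptor tyrosine kinase AXL and IGFBP3, which had fallen by more than 1.5 in both backgrounds, differed by -0.17 (called) and -0.14 (not called).

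Among 21 components of the Hippo pathway and TEAD factors, 4 had a positive and 3 a negative difference (19% and 14.3%), shares near those of all genes (12.2% and 15.5%). YAP1, the paralogue of TAZ, fell by 0.75 with siAPC and by 0.36 with sibcat (difference -0.38, SE 0.0644, adjusted p = 1.2e-04). The TEAD cofactor VGLL3 and the scaffold RASSF1 also fell further with siAPC, by differences of -0.56 and -0.40. TEAD2 and the kinase activator MOB1A had positive differences of 0.53 and 0.30, and the protocadherin FAT4 rose by 0.28 with siAPC and fell by 0.54 with sibcat (difference 0.82). The kinases STK3, STK4, LATS1 and TAOK1 had differences between 0.01 and 0.09, none called.

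Of 27 measured genes known as beta-catenin and TCF targets, TAZ siRNA raised 18 with siAPC and 9 with sibcat. Of these 27, 16 had a positive (59.3%, against 12.2% of all genes) and none a negative difference. In 11 of the 27 a group mean lay under 5, where a low signal limits the fall that can be seen. When all 4 group means had to be at least 5, 11 positive calls remained. The list median was 0.47, from a median effect of 0.59 with siAPC and 0.11 with sibcat. AXIN2, a feedback inhibitor of the pathway, rose from 10.08, 10.09, 10.08 and 10.14 to 10.99, 10.87, 10.92 and 11.06 with siAPC, while with sibcat it went from 4.11, 4.36, 4.38 and 4.30 to 4.55, 4.63, 4.84 and 4.46. The siAPC arrays were above the sibcat arrays by more than 5 log2 units in both states, and the pairwise changes overlapped (difference 0.53, SE 0.109, adjusted p = 8.7e-04). LEF1, a partner of beta-catenin on DNA, rose from 9.46, 9.5, 9.41 and 9.49 to 10.74, 10.67, 10.67 and 10.70 with siAPC and fell from 6.32, 6.24, 6.45 and 6.29 to 6.06, 6.18, 6.22 and 6.03 with sibcat. Its groups did not overlap within either background, and its difference was 1.43 (SE 0.0692, adjusted p = 1.3e-11). APCDD1, SP5, TBX3 and NKD1, which rose with siAPC and had no called effect with sibcat, had differences of 1.33, 0.97, 0.73 and 0.56, and MYC one of 0.53.

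CCND1, the gene of cyclin D1, and the Wnt inhibitor DKK1 were the list members that TAZ siRNA lowered with siAPC, and both also fell with sibcat. CCND1 fell by 0.90 with siAPC and by 1.97 with sibcat (difference 1.07, SE 0.0691, adjusted p = 5.9e-10). On the linear scale the fall of CCND1 was larger with siAPC. DKK1, which fell by 2.30 and 2.29, had a difference of -0.01 that was not called. LGR5, NOTUM, DKK4 and WNT11 had no called effect in either background. Among 31 Wnt ligands, receptors and destruction complex genes, 11 had a positive and 3 a negative difference, with a median of 0.04. The shares were 35.5% and 9.68%, against 12.2% and 15.5% of all genes. The receptor FZD10 rose in both backgrounds and more with siAPC (2.96 and 1.32, difference 1.63), FZD7 rose with siAPC and fell with sibcat (difference 1.11, adjusted p = 6.8e-11), and TCF7L2 and the Wnt-binding SFRP1 had differences of 0.58 and 0.50. FZD4, FZD5 and DVL1 were the 3 with a negative difference (-0.48, -0.38 and -0.23).

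**Figure D4:**
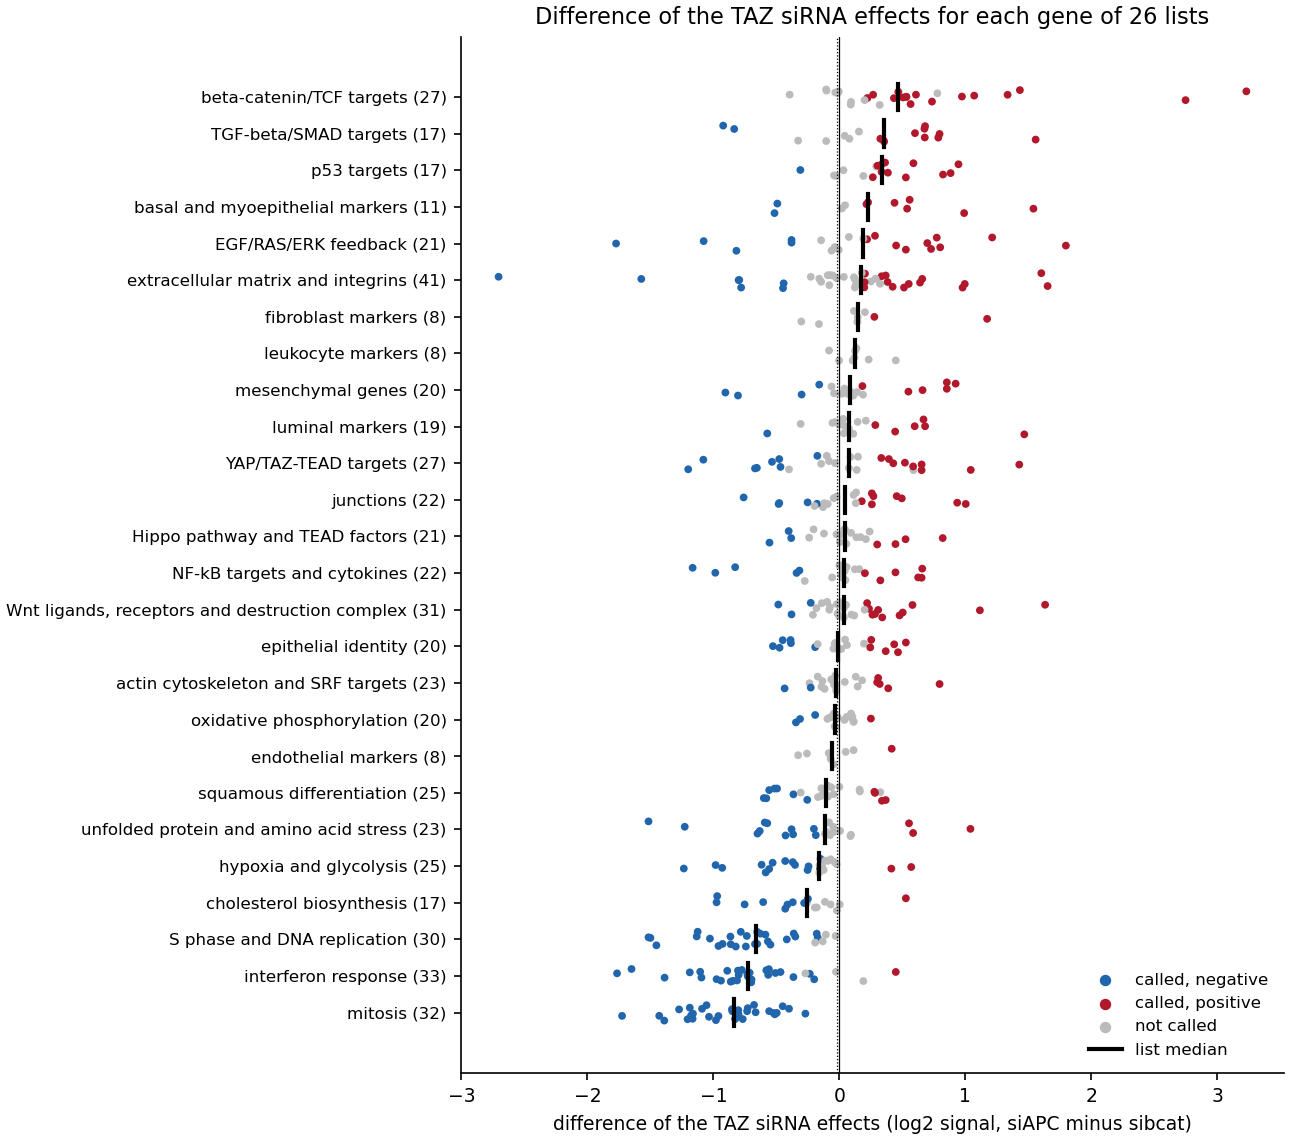
Difference of the TAZ siRNA effects for each measured gene of 26 lists (x axis, log2 signal, siAPC minus sibcat; points, genes; black ticks, list medians; number of genes in brackets; dotted line, median of all genes). The mitosis, interferon and S phase lists lie almost wholly to the left, with medians of -0.84, -0.73 and -0.66, and the beta-catenin/TCF, TGF-beta/SMAD and p53 lists lean to the right.

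Genes of cell division ran one way. All 32 measured mitosis genes had a negative difference, against 15.5% of all genes, with a median of -0.84 and a range from -1.73 to -0.27. TAZ siRNA lowered 31 of them with siAPC and raised 25 of them with sibcat, and 24 had called effects of opposite sign. Relative to control the list median was -0.06 with siAPC, -0.65 with siAPC/siTAZ, 0.59 with sibcat and 0.84 with sibcat/siTAZ. CCNB1, the cyclin that drives entry into mitosis, fell from 10.51, 10.47, 10.51 and 10.59 to 9.61, 9.61, 9.5 and 9.54 with siAPC and rose from 11.20, 11.14, 11.13 and 11.12 to 11.44, 11.35, 11.34 and 11.46 with sibcat. The 4 groups occupied separate ranges and the difference was -1.21 (SE 0.059, adjusted p = 1.5e-11). CENPE, a kinetochore motor, fell from 8.19, 8.10, 8.14 and 8.21 to 7.63, 7.65, 7.64 and 7.69 and rose from 9.11, 9.09, 9.06 and 8.99 to 9.75, 9.76, 9.67 and 9.69, again in separate ranges (difference -1.16, SE 0.0583, adjusted p = 1.9e-11). NDC80, which ties microtubules to kinetochores, the anaphase activator CDC20, the kinases CDK1, AURKA and AURKB, and the kinesin KIF20A had differences of -1.27, -1.43, -1.19, -1.09, -1.17 and -1.06. In bulk RNA, fewer dividing cells and less of these mRNAs per cell cannot be told apart.

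Many mitotic genes carry a CHR element, a short promoter sequence read as TTTGAA, at which the DREAM and MuvB complexes are known to act. Among the 26 mitosis genes with a promoter in the RefSeq table (GRCh38.p14, 250 bases before to 50 after the annotated start), 19 held TTTGAA on either strand (73.08%), against 11.94% of the 15382 promoters of tested genes and 15.16% of all 35116 promoters. Among the 50 largest called negative and 50 largest called positive differences the share was 18% and 10%. Windows around the match, all before the start site, are shown for 4 members of the list with the motif in capitals, and a match is a description of the letters only. CCNB2 lies at chr15:59105092-59105145, CDCA8 at chr1:37692468-37692515, BUB1B at chr15:40161021-40161068 and PLK1 at chr16:23678835-23678888, all on the plus strand.
CCNB2: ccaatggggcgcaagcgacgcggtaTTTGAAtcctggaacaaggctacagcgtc
CDCA8: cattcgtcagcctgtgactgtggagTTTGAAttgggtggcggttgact
BUB1B: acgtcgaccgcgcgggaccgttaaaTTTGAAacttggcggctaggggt
PLK1: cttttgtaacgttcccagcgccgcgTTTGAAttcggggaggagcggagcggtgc
The differences of these 4 genes were -1.04, -1.18, -0.77 and -0.51, in the order printed. TTTGAA was in 1 of 26 promoters of the S phase list, whose members ran the same way.

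Genes of DNA replication followed with 26 negative (86.7%, against 15.5% of all genes) and no positive difference among 30, and a median of -0.66. Here TAZ siRNA lowered 25 genes with siAPC, while with sibcat 12 rose and 4 fell. MCM6, a subunit of the replicative helicase, fell from 9.48, 9.49, 9.36 and 9.36 to 7.89, 7.88, 7.94 and 7.96 with siAPC and read 10.44, 10.31, 10.35 and 10.46 with sibcat and 10.45, 10.40, 10.39 and 10.36 with sibcat/siTAZ. Only the siAPC groups were apart, and the difference was -1.52 (SE 0.0611, adjusted p = 1.1e-12). The other probe set of MCM6 gave -0.34, not called. GINS2, CCNE2, UHRF1 and RFC4 had differences of -1.45, -1.5, -1.13 and -1.03. The 2 other probe sets of GINS2 gave -0.15 and -0.14, neither called. PCNA, the sliding clamp, and E2F1 were among the 4 not called, at -0.11 (adjusted p = 0.3) and -0.13 (adjusted p = 0.474).

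Interferon-stimulated genes rose with TAZ siRNA when beta-catenin was depleted and mostly not when APC was. Of 33 measured genes, 29 had a negative difference (87.9%, against 15.5% of all genes) and 1 a positive one, and the median was -0.73. The median effect was 0.06 with siAPC, where 12 of 33 rose and 4 fell, and 0.85 with sibcat, where 31 rose. Relative to control the list median was -0.30 with siAPC, -0.21 with siAPC/siTAZ, 0.65 with sibcat and 1.5 with sibcat/siTAZ. IFIT1, which binds viral RNA lacking cap methylation, fell from 6.95, 7.16, 7.06 and 7.05 to 6.39, 6.66, 6.39 and 6.42 with siAPC and rose from 9.63, 9.63, 9.72 and 9.54 to 10.79, 10.75, 10.76 and 10.92 with sibcat. All sibcat arrays were above all siAPC arrays by more than 2 log2 units, and the difference was -1.77 (SE 0.0873, adjusted p = 1.7e-11). ISG15, a ubiquitin-like modifier, read 7.99, 7.94, 7.88 and 7.99 with siAPC and 7.98, 8.04, 8.03 and 7.96 with siAPC/siTAZ, and rose from 10.33, 10.24, 10.39 and 10.29 to 11.40, 11.21, 11.32 and 11.43 with sibcat. The siAPC groups overlapped and the sibcat groups did not (difference -0.98, SE 0.07, adjusted p = 2.4e-09). IFITM1, MX1, IFI27 and IFIT3, which restrict viral entry or replication or are induced with such genes, had differences of -1.39, -1.19, -1.11 and -0.94. SAMD9 was the member with a positive difference (0.45), and OAS2, SAMD9L and CMPK2 were not called.

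The interferon-stimulated response element is bound by STAT and IRF factors and was read as GAAA, any 2 bases and GAAA again, on either strand. It was found in 17 of 27 promoters of the list (62.96%), against 2.945% of the promoters of tested genes and 3.574% of all promoters of the table. Of the 50 largest negative and 50 largest positive differences, 4% and 8% held it. Windows before the start site are shown for IFIT1 and ISG15, whose differences were negative, and for SAMD9, whose difference was positive, with the matches in capitals. IFIT1 lies at chr10:89392482-89392554 and ISG15 at chr1:1013359-1013424 on the plus strand, and SAMD9 at chr7:93118081-93118140 on the minus strand.
IFIT1: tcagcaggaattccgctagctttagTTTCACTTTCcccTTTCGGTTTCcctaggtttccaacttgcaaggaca
ISG15: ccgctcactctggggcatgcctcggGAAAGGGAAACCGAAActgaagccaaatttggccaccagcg
SAMD9: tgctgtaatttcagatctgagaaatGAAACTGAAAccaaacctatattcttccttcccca
The TEAD motif GGAATG was in 7 of 20 promoters of the YAP/TAZ-TEAD list (35%) and in 11.93% of the promoters of tested genes, and the TCF/LEF motif CTTTGAT in 1 of 14 promoters of the beta-catenin/TCF list and 1.911% of tested genes. Of the 50 largest differences in either direction, 12% held GGAATG and 2% CTTTGAT.

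Cytokines and NF-kB targets split, with 6 positive and 5 negative differences among 22 (27.3% and 22.7%, against 12.2% and 15.5% of all genes). CXCL8, the neutrophil chemokine IL-8, rose from 7.99, 7.97, 7.95 and 7.86 to 9.36, 9.37, 9.40 and 9.33 with sibcat, and from 11.20, 11.22, 11.34 and 11.39 to 11.45, 11.49, 11.58 and 11.66 with siAPC. The rise was larger with sibcat on the log2 scale (difference -1.17, SE 0.0769, adjusted p = 7.6e-10), and its sign turned on the linear scale, where the siAPC signal was far higher. CXCL1, another chemokine, and the alarmin IL1A had differences of -0.98 and -0.83, the sign of CXCL1 turning in the same way. The other probe set of IL1A gave 0.085, not called. IL6, LIF and SOD2 had positive differences of 0.65, 0.66 and 0.62, that of IL6 turning on the linear scale.

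**Figure D5:**
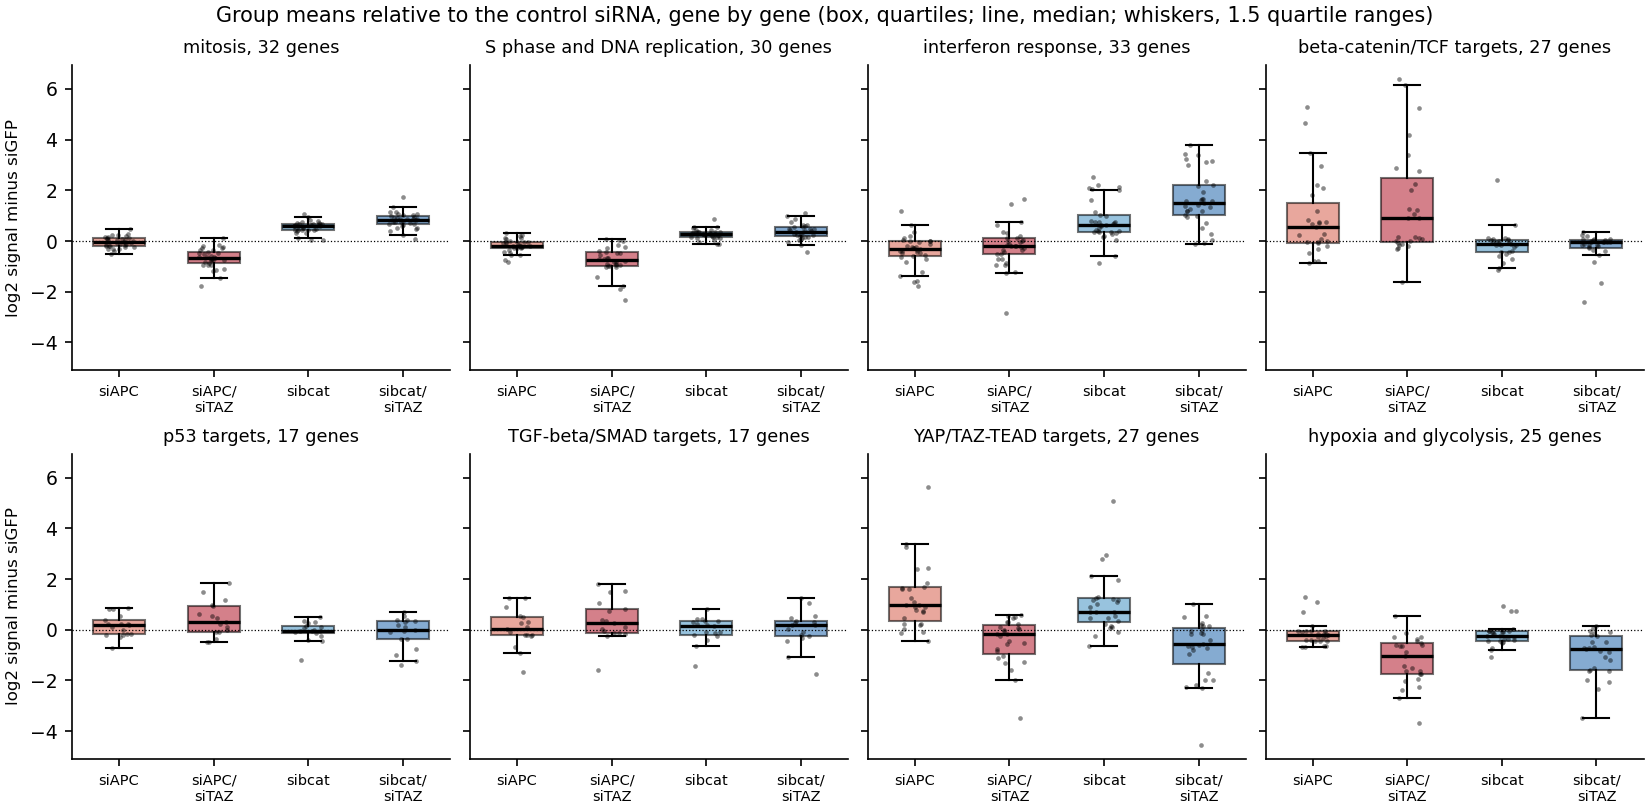
Group means relative to siGFP for the genes of 8 lists (y axis, log2 signal minus siGFP; points, genes; boxes, quartiles; whiskers, 1.5 quartile ranges). With TAZ siRNA the mitosis median goes from -0.06 to -0.65 with siAPC and from 0.59 to 0.84 with sibcat, and the interferon median from -0.30 to -0.21 and from 0.65 to 1.5.

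p53 targets leaned to the positive side, with 11 positive and 1 negative difference among 17 and a median of 0.34. The shares were 64.7% and 5.88%, against 12.2% and 15.5% of all genes. CDKN1A, the gene of the CDK inhibitor p21, read 11.54, 11.57, 11.57 and 11.51 with siAPC and 11.44, 11.43, 11.49 and 11.45 with siAPC/siTAZ, and fell from 11.01, 11.12, 11.09 and 11.23 to 10.12, 10.09, 10.13 and 10.20 with sibcat. The fall with sibcat exceeded the spread of its arrays, the effect with siAPC was not called, and the difference was 0.88 (SE 0.0673, adjusted p = 5.6e-09). SESN1, a stress-induced inhibitor of mTORC1 signalling, and the death receptor FAS rose in both backgrounds and more with siAPC (differences 0.82 and 0.59). TP53INP1 rose with siAPC and fell with sibcat (0.95), and MDM2, the ubiquitin ligase of p53, had a difference of 0.53. AEN was the member with a negative difference (-0.31).

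Targets and members of the TGF-beta and BMP pathways had 10 positive and 2 negative differences among 17, with a median of 0.35. The shares were 58.8% and 11.8%, against 12.2% and 15.5% of all genes. INHBA, a subunit of activin, fell from 10.49, 10.41, 10.34 and 10.30 to 9.68, 9.81, 9.81 and 9.79 with siAPC and from 10.27, 10.26, 10.24 and 10.22 to 8.09, 8.08, 8.12 and 8.02 with sibcat. Its sibcat/siTAZ arrays were the lowest by more than 1.5 log2 units (difference 1.56, SE 0.0607, adjusted p = 8.2e-13). ID1, an early BMP target, rose from 10.32, 10.36, 10.24 and 10.32 to 12.10, 12.06, 12.09 and 12.11 with siAPC and from 10.60, 10.46, 10.58 and 10.52 to 11.55, 11.47, 11.49 and 11.59 with sibcat. It began lower and ended higher with siAPC (difference 0.80, SE 0.0617, adjusted p = 7.0e-09). The feedback inhibitors SMAD6, SMAD7, BAMBI and PMEPA1 had differences of 0.79, 0.60, 0.68 and 0.68. BMP2 and the receptor TGFBR1 were the negative members at -0.84 and -0.92, and another probe set of TGFBR1 was called in the opposite direction (1.02), so its direction is uncertain.

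Feedback genes of the EGF, RAS and ERK pathway had 10 positive and 5 negative differences among 21 (47.6% and 23.8%, against 12.2% and 15.5% of all genes). The ETS factor ETV1 rose from 7.41, 7.49, 7.53 and 7.28 to 9.26, 9.34, 9.25 and 9.23 with siAPC and read 6.86, 6.81, 6.82 and 6.53 with sibcat and 6.85, 6.85, 6.90 and 6.60 with sibcat/siTAZ. The siAPC groups were apart and the sibcat groups overlapped, with a difference of 1.80 (SE 0.104, adjusted p = 1.4e-10). ETV5, DUSP6 and SPRY1, which like ETV1 are induced by ERK signalling, had differences of 0.73, 0.80 and 0.77, and the stress kinase phosphatase DUSP10 one of 1.21. The phosphatase DUSP1 and the EGF receptor ligands EREG and HBEGF had negative differences (-1.08, -0.82 and -0.38).

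Matrix and differentiation genes showed no single direction. Among 41 matrix and integrin genes 16 had a positive and 7 a negative difference, and the median was 0.18. The shares were 39% and 17.1%, against 12.2% and 15.5% of all genes. HAS2, a hyaluronan synthase, rose with siAPC and fell with sibcat (difference 1.65, adjusted p = 1.7e-08), whereas HAS3 rose in both and more with sibcat (-0.80). MMP1 and TIMP3 had differences of 0.98 and 1.00, and EDIL3, which fell in both backgrounds and further with sibcat, one of 1.6 whose sign turned on the linear scale. COL8A1 fell in both and further with siAPC (-1.57). Among 20 mesenchymal genes 6 were positive (30%) and 4 negative (20%). COL1A1 and SPARC, which rose in both backgrounds, and the factors TCF4 and PRRX1 had differences of 0.85, 0.66, 0.85 and 0.92, and FOXC2 and LOXL2 of -0.91 and -0.81.

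Epithelial identity genes were divided evenly, 6 in each direction among 20 (30% each way, against 12.2% positive and 15.5% negative of all genes). The keratin KRT18 and the adhesion molecule EPCAM fell in both backgrounds and further with siAPC (-0.53 and -0.45), and ESRP1 and GRHL2, regulators of the epithelial state, had differences of 0.44 and 0.37. Junction genes had 8 positive and 5 negative differences among 22 (36.4% and 22.7%), with OCLN at -0.76, the plakophilin PKP2 at 0.94 and the claudin CLDN8 at 1.00. Basal and myoepithelial markers had 7 positive and 2 negative among 11 (63.6% and 18.2%). ACTA2, smooth muscle actin, rose from 8.91, 8.81, 8.75 and 8.95 to 10.5, 10.39, 10.37 and 10.39 with siAPC and read 8.46, 8.39, 8.47 and 8.41 with sibcat and 8.54, 8.48, 8.35 and 8.43 with sibcat/siTAZ. Only the siAPC groups were apart and the difference was 1.54 (SE 0.0721, adjusted p = 8.5e-12), although its other 2 probe sets gave -0.15 and 0.07, neither called. TAGLN had a difference of 0.99. Luminal markers had 6 positive and 1 negative among 19 (31.6% and 5.26%), with KRT23 at 1.47, CD24 at 0.68 and XBP1 at -0.57. Squamous genes had 4 positive and 7 negative among 25 (16% and 28%), with SPRR1B at -0.60 and SERPINB4 at -0.58. Among 23 actin and SRF targets 5 were positive and 2 negative, 30.4% called against 27.7% of all genes, with EGR1 at 0.80.

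Metabolic lists leaned to the negative side. TAZ siRNA lowered 22 of 25 hypoxia and glycolysis genes with siAPC and 21 with sibcat. Of the 25, 14 had a negative and 2 a positive difference, with a median of -0.16. The shares were 56% and 8%, against 15.5% and 12.2% of all genes. HK2, the first enzyme of glycolysis, fell from 9.88, 9.91, 9.86 and 9.78 to 8.13, 8.21, 8.13 and 8.17 with siAPC and from 9.82, 9.86, 9.89 and 9.91 to 9.46, 9.34, 9.38 and 9.45 with sibcat. The starting levels overlapped and the end levels did not (difference -1.24, SE 0.0612, adjusted p = 1.7e-11). However, its 2 other probe sets gave -0.0025 and 0.35, neither called. ALDOC, ANKRD37, ADM and VEGFA fell in both backgrounds and further with siAPC, by differences of -0.98, -0.93, -0.56 and -0.35. The other probe set of ANKRD37 gave 0.22, not called. Unfolded protein and amino acid stress genes had 11 negative and 3 positive differences among 23 (47.8% and 13%). ASNS, asparagine synthetase, fell from 10.92, 10.91, 10.95 and 10.87 to 7.56, 7.71, 7.66 and 7.69 with siAPC and from 10.66, 10.5, 10.59 and 10.49 to 8.58, 8.55, 8.47 and 8.52 with sibcat. It ended below its control mean of 8.59 with siAPC and close to it with sibcat (difference -1.23, SE 0.0709, adjusted p = 1.3e-10). The other probe set of ASNS gave -0.11, not called. SEL1L, of the machinery that removes misfolded proteins, fell with siAPC and had no called effect with sibcat (-1.52). Cholesterol synthesis genes had 9 negative and 1 positive difference among 17 (52.9% and 5.88%) and a median of -0.26. HMGCS1, INSIG1, STARD4 and SQLE stood at -0.98, -0.97, -0.75 and -0.61. Oxidative phosphorylation genes did not lean in this way, with 3 negative and 1 positive among 20 and a median of -0.03. Their share called was 20%, against 27.7% of all genes.

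Markers of other cell types and of RNA quality were read beside these results. Of 8 fibroblast markers 2 had a called difference, both positive: COL3A1 rose from 4.81 to 5.34 with siAPC to 9.82 to 9.92 with siAPC/siTAZ and from 4.29 to 4.86 to 7.98 to 8.30 with sibcat (difference 1.17, adjusted p = 4.7e-05), and DCN differed by 0.28, a call lost on its probe set with the highest variance (0.30, adjusted p = 0.253). DCN stood at a group mean of 11.32 or more in every group. The log2 group means of the 8 markers, added together, went from 49.88 to 57.08 with siAPC and from 49.56 to 55.18 with sibcat. The fibroblast receptor PDGFRA stayed at 3.93 or less, but FAP had group means of 9.1 to 9.4 and PDGFRB of 5.62 to 6.05. DPT went from 4.66 to 5.9 with siAPC and from 4.68 to 5.8 with sibcat. Of 8 endothelial markers PECAM1 was called (0.42, adjusted p = 0.0498), and none of 8 leukocyte markers was. Added together in the same way, the log2 group means came to 32.08 to 34.67 for the endothelial and 33.05 to 37.71 for the leukocyte list. The part of these markers in the differences was not tested. The ACTB 3' minus 5' probe signal, a measure of RNA integrity, rose by 0.42 with siAPC (means 1.57 to 1.99) and by 0.23 with sibcat (1.81 to 2.04), and the same measure for GAPDH by 0.03 and 0.06. None of 45 spike-in probe sets had a called difference (-0.15 to 0.30). The part of RNA integrity in the differences was not tested.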

How the data were processed

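Total RNA of 20 MII samples was hybridised to HG-U133 Plus 2.0 arrays, and the authors deposited log2 signals made with RMA, per the submitters' processing notes. For RMA, version and settings were not given in the sources used here, and it equalises the distribution of signals between arrays. Of 54675 probe sets, 41091 carry 1 gene symbol in the platform annotation, 1801 several and 11721 none, and 62 are controls. Symbols were updated through RefSeq (41037 matched), and each of 19775 genes was read on its brightest probe set by the mean of all 20 arrays.

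Group means of the 5 groups were fitted with limma 3.58.1 in R 4.3.3 on all 20 arrays (15 residual degrees of freedom), with empirical Bayes moderation, and the difference of the TAZ siRNA effects was a contrast of 16 arrays. All p-values are two-sided and adjusted over 19775 genes, with calls under 0.05. The fit was tested on simulated data. The number of arrays limits the precision. Tables and figures used Python 3.11.15.

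The genes, lists and tests were chosen with earlier results of these data known. The rule for named genes took the 3 siRNA targets, CCN2, CCN1, ANKRD1 and AXIN2, the 15 largest called differences in each direction whose pairwise changes did not overlap, up to 4 called genes with the smallest adjusted p of each list, and the 5 largest opposite effects in each direction. Other list members named were chosen after their values were seen. The replicate letters do not pair the arrays (median residual correlation of the same letter 0.027). Promoter sequences come from RefSeq (GRCh38.p14). Alternatives changed the arrays fitted, the moderation, array weights, scaling, signal filter, probe set rule, minimum size and scale.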

Additional observations from a re-analysis of the deposited data

Results flagged for a closer look

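In 10 of 168 groups of 4 arrays tested among the named genes (5.952%), 1 array stood apart from the other 3 by Dixon's criterion, which chance meets in about 1 in 20 groups. With siAPC/siTAZ these were ANKRD1 on array A (2.80, group median 3.17), SGTB on array A (5.65), BMP4 on array A (11.02), IFIT1 on array B (6.66) and OIP5 on array C (6.08). With sibcat/siTAZ they were CCN1 (6.90) and NUF2 (8.70), both on array A. With the single depletions they were AXIN2 on siAPC array D (10.14), PGM2L1 on siAPC array A (6.56) and PID1 on sibcat array B (7.85).

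The difference of the TAZ siRNA effects, tested as a limma contrast, was called for 5480 genes. Among the siRNA targets it was -0.45 for WWTR1, -0.67 for APC and 1.69 for CTNNB1, and among the reporters 1.04 for CCN1, -0.48 for ANKRD1 and 0.53 for AXIN2.

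The 15 largest negative differences were PRR16 (-3.39), TIMP2 (-3.23), SDC2 (-2.73), SRGN (-2.71), DEK (-2.36), OIP5 (-2.19), SGTB (-2.06), AOX1 (-2.05), OXTR (-1.98), FGF13 (-1.92), PID1 (-1.83), DUSP5 (-1.77), IFIT1 (-1.77), NUF2 (-1.73) and E2F8 (-1.72). The 15 largest positive differences were BMP4 (3.23), ARL14 (3.08), OLR1 (3.04), IL33 (2.90), DKK2 (2.75), TCIM (2.41), CCN4 (2.28), ZBED2 (2.14), MYO3B (2.12), TNFSF18 (2.08), STMN1 (2.08), TOX (1.97), VASH2 (1.93), RGCC (1.93) and FBXO32 (1.86), those of OLR1 and RGCC turning sign on the linear scale. Among genes with called effects of opposite sign, ADAMTS5 (-1.57), PLCXD2 (1.65), SGCB (1.6), PTGER4 (1.57) and PGM2L1 (1.38) had the largest smaller effects outside these lists.

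Of 13522 probe sets without a single gene symbol, which the comparison left out, 1515 had a called difference (11.2%), 942 positive and 573 negative.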

How the results depend on the processing

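The 5480 calls became 5520 with the letters as a replicate block (2418 positive, 3102 negative) and 5411 on the 16 arrays alone. Across single-array removals the count ran from 5110 to 5582, and no lost call returned with the opposite sign. Repeated quantile scaling gave 2802 positive and 2726 negative calls, in place of 2407 and 3073, and the median of all genes stayed between -0.035 and -0.00412 across settings. Testing every probe set gave 9183 calls (4441 positive, 4742 negative) among 41091. Of 8057 other probe sets of called genes, 6364 had the same sign (78.99%), 2735 were called the same way (33.95%) and 107 the opposite way. With a mean signal of at least 5, 47.08% of 5200 were called the same way. No other probe set was called for HK2, ASNS, ANKRD37, MCM6, GINS2, IL1A, LOXL2, EDIL3 or RGCC. The same held for SGTB, MYO3B, TOX, PLCXD2, PTGER4, PKP2, TEAD2, TP53INP1, FOXC2 and XBP1. Requiring a size of 1 left 334 (173 positive, 161 negative), of which the counts in the direction reported were 12 for mitosis, 6 for S phase, 6 for interferon, 5 for beta-catenin/TCF, 1 each for TGF-beta/SMAD and hypoxia, and 0 for p53 and cholesterol. A mean signal of at least 7, which tests fewer genes, left 18 interferon and 10 beta-catenin/TCF genes.

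On the linear scale 86 of the 5480 differences turned sign. Among named genes these were CCN1 (-908.8), OLR1 (-86.7), RGCC (-14.3), TGFB2 (-13.9), CCND1 (-194.5), CXCL8 (75), CXCL1 (402.9), IL6 (-48), S100A8 (-111.2), KLK7 (-178.5), EDIL3 (-68.6) and LIMA1 (-161.1), in signal units. CCN2 was called with an intensity trend (adjusted p = 0.0196, limma), with a mean signal of at least 5 (0.0498) or 7 (0.0289), and without siAPC/siTAZ A (0.0117) or sibcat/siTAZ D (0.0208). PECAM1 lost its call under most single-array removals. TGFBR1, ALDH1A3, S100A8, VCL, SDHC and PECAM1 lost their calls with the mean of all probe sets, and SDHC, DCN and PECAM1 with the probe set of highest variance. SDHC also lost its call without siAPC D (0.0541) or siAPC/siTAZ D (0.0517). Signals near or below 3, as for ANKRD1, DKK2, IL33, MYO3B, OLR1, TCIM and TOX, lie near the lowest of the arrays and limit how far a fall can be seen.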

Other observations

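Gene families, grouped by symbol after their values were seen, are given as counts without a test. Some share members with the lists, such as KIF20A and CENPE of the mitosis list, so their counts are not separate from those above. Of all genes tested, those of low signal included, 12.2% had a called positive and 15.5% a called negative difference. Factors of ribosomal RNA processing (RRP, UTP and NOP genes) had 21 negative and 1 positive difference among 26, with a median of -0.36 and RRP1B at -1.08 and RRP15 at -0.81. Subunits of the RNA exosome, which trims and degrades RNA, had 7 negative and no positive difference among 10, with EXOSC8 at -1.14 and EXOSC9 at -0.92. Mitochondrial ribosomal proteins had 42 negative and no positive difference among 77 (median -0.19), led by MRPL51 (-0.84). Cytosolic ribosomal proteins had 5 positive and no negative among 50 (median 0.06, highest 0.17), a positive share below that of all genes. Nucleoporins had 15 negative and no positive difference among 26, and the CCT chaperonin, which folds actin and tubulin, 5 negative and no positive among 9. All 7 measured metallothioneins, which bind zinc and other metals, had a negative difference (median -0.53).

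Lysine demethylases, which remove methyl groups from histones, had 10 positive and no negative difference among 19, with KDM5A at 0.62, and chromodomain helicases 5 positive and no negative among 10, with CHD6 at 0.80. Protocadherins of the beta cluster had 9 positive and no negative among 17 (median 0.32), and PLEKHA genes 7 positive and no negative among 9, with PLEKHA3 at 1.00. In the other families counted, kinesins had 8 positive and 14 negative differences among 42, proteasome subunits 4 and 17 among 40, tubulins 2 and 9 among 18, centromere proteins 1 and 14 among 20, Fanconi genes 2 and 4 among 9, SMC genes 0 and 3 among 8, caspases 4 and 0 among 10 and KLF genes 5 and 0 among 19. Metallothioneins, tubulins and beta protocadherins include near-identical copies, so their probe sets may not tell members apart. Genes with a mean signal of at least 5 were also split into 4 equal sets by gene length: in the shortest set (median 5.47 kb) 12.05% had a positive and 21.43% a negative difference, and in the longest (median 130 kb) 26.94% and 19.92%.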
